A study of Mus musculus with 2 samples.

Results

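Dach1, Rgcc, Ptp4a3, Col15a1 and Mgll are 5 of the 32285 genes counted in single cells of the mouse Isl1 lineage at E13.5 (embryonic day). They were chosen by their symbols because their levels in endothelial cells (ECs) were far lower in the mutant than in the control library, so those differences are given below as a description and were not tested. Control embryos carried Isl1-Cre and the R26R-eYFP reporter. Mutant embryos carried the same alleles plus Pik3caH1047R, an activating form of the catalytic subunit of a phosphoinositide 3-kinase that is expressed after Cre removes a stop cassette. Cre is driven by Isl1, which is active in pharyngeal mesoderm, the second heart field and some epithelial, neural and neural crest derivatives, so the eYFP+ cells sorted from the body above the liver were of many types and the allele may have been active in any of them. Each genotype was 1 library made from 3 pooled embryos, so no difference between genotypes has a replicate check, and every interval below is a 95% interval for counting error only.

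These 5 genes act in unrelated steps of cell biology. Dach1 encodes a nuclear cofactor of the dachshund family that is known in the endothelium for its part in coronary artery growth. Rgcc encodes a regulator of the cell cycle that was found as a complement-response gene and binds the mitotic kinase CDK1. Ptp4a3 encodes PRL-3, a prenylated phosphatase of the PTP4A family that is known in tumour and vascular cells. Col15a1 encodes the chain of type XV collagen, which lies at the outer face of basement membranes around capillaries and muscle. Mgll encodes monoacylglycerol lipase, which splits monoacylglycerols, an endocannabinoid among them, into glycerol and free fatty acid.

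The genes lie on 4 chromosomes (GRCm38, positions from GENCODE vM21). Dach1 spans 97786853 to 98169765 of chromosome 14 on the minus strand, 383 kb of which 7.32 kb are exonic. Rgcc lies on the same chromosome and strand, at 79288756 to 79301645. Ptp4a3 spans 73723145 to 73758766 of chromosome 15, Col15a1 spans 47208161 to 47313167 of chromosome 4, and Mgll spans 88724412 to 88828360 of chromosome 6, all on the plus strand. Since the 5 genes differ in the same direction in ECs, the bases just before their starts are shown, as RefSeq gives them for GRCm38.p6, from 250 to 11 bases before the annotated start. An entry was found for 4 of the 5 genes, Ptp4a3 being the one without. Mgll had 2 entries, of which the first by position is shown. The RefSeq start of Col15a1 lies upstream of the GENCODE start given above, and distances below are from the RefSeq start. Each sequence is written 5′ to 3′ on the strand of the gene, and capitals mark matches to 6 short motifs that were searched on both strands and whose letters were chosen after these sequences had been seen.
Dach1, chr14:98169776-98170015: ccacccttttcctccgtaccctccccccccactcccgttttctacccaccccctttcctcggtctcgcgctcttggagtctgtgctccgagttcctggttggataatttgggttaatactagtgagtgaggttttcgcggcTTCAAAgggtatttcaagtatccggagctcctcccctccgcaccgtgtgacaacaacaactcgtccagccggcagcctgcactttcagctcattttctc
Rgcc, chr14:79301646-79301885: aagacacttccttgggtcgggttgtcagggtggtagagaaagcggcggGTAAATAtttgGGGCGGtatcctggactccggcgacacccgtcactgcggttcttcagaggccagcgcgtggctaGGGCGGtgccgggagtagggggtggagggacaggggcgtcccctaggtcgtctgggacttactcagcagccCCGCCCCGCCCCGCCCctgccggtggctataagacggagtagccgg
Col15a1, chr4:47207762-47208001: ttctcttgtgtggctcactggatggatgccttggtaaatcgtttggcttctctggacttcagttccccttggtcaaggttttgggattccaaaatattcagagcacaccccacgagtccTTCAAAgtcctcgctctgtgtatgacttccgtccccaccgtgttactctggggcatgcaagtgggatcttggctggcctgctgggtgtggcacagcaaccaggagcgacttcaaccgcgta
Mgll, chr6:88724162-88724401: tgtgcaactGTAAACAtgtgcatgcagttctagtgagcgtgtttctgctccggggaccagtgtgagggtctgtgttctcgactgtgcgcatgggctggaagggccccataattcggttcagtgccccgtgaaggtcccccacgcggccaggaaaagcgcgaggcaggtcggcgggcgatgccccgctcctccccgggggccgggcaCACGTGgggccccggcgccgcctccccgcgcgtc
The Dach1 and Col15a1 windows each held 1 copy of TTTGAA, the CHR element of many cell-cycle genes, on the minus strand of the gene at 109 and 131 bases before the start. That motif occurred in 15.5% of 32851 windows of this length. The forkhead motif GTAAACA (3.06% of windows) stood once in Mgll and its variant GTAAATA (2.66%) once in Rgcc. Rgcc also held 5 GC boxes, GGGCGG (31.3% of windows), of which the 3 nearest the start overlap each other by 1 base. In Mgll the core ACGTG (15.9%), part of the sites of hypoxia-inducible and other basic helix-loop-helix factors, was read on both strands of a single CACGTG, in a stretch that is also exonic for the antisense gene Gm26588. No window held CCAAT (33.0% of windows). None of the 6 motifs stood in all 4 windows, and a match is a string of letters, not evidence of binding.

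Before the results, some facts about the libraries bear on every value. With over 2000 and under 9000 genes and under 10% mitochondrial UMIs (unique molecular identifiers, 1 per captured molecule), 2783 control and 3489 mutant cells were kept, with medians of 20412 and 16839 UMIs, and 12 of their barcodes occurred in both libraries. The libraries stood apart in sex: 95.5% of control cells were female-like by Xist and Y-linked UMIs against 33.6% of mutant cells, and 53.3% of mutant cells were male-like. Clustering gave 1 cluster that raised 20 of 20 EC markers, called EC-like, with 162 control cells (5.82%) and 746 mutant cells (21.4%). The summed level of those 20 markers was 8319 UMIs per 1000000 (CPM) in control and 8412 in mutant EC-like cells. Mesenchyme markers, all 10 of which were detected, summed to 670 and 488 CPM, the 9 mural cell markers to 635 and 499, arterial EC markers to 1338 and 794, capillary EC markers to 662 and 334, and endocardial EC markers to 379 and 835. Their part in the members' values was not tested beyond the subclusters described below. Levels are CPM within 1 gene across groups of cells, and different genes are not compared by level.

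In EC-like cells, all 5 genes were several-fold lower in the mutant library. Dach1 stood at 363 CPM in control (343 to 383) and 72.5 CPM in mutant cells (68.2 to 76.9), a log2 ratio of mutant over control of −2.32 (−2.44 to −2.20) from 1288 and 1080 UMIs. Rgcc stood at 150 CPM (138 to 163) and 31.3 CPM (28.5 to 34.3), a log2 ratio of −2.26. The 2 regulators were therefore lower by similar factors, 5.0 and 4.80.
Ptp4a3 was measured at 209 CPM in control (194 to 224) and 41.9 in mutant EC-like cells (38.7 to 45.3), a log2 ratio of −2.32. Col15a1 was measured at 323 CPM (305 to 343) and 65.9 CPM (61.9 to 70.2), a log2 ratio of −2.29. Mgll, which had the fewest UMIs (217 and 76), went from 61.1 CPM (53.2 to 69.8) to 5.10 (4.02 to 6.39), a log2 ratio of −3.58 (−3.98 to −3.20). For no gene did the intervals of the libraries overlap, and Mgll stood apart from the other four with a 12.0-fold difference. Over the 2218 genes with at least 100 CPM in EC-like cells of a library, the median log2 ratio was −0.00, 5.46% were lower with an interval wholly past 1.5-fold and 6.72% higher. All 5 members passed that same mark (Mgll below the CPM filter), which their choice fixed. Among the 2218 genes, Dach1, Ptp4a3, Col15a1 and Rgcc had the lowest 4 ratios, Rgcc being the last of them, and the next was Galnt18, a glycosyltransferase gene, at −2.20. This rank also follows from their choice, and these 4 genes passed the CPM filter through the control library only.

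A smaller share of mutant EC-like cells held each message. After every cell was thinned to 5000 UMIs (159 of 162 control and 711 of 746 mutant EC-like cells were deep enough), Dach1 was found in 44.7% of control and 21.1% of mutant cells, against 64.2% and 44.9% at full depth. Rgcc was found in 30.2% and 10.8% (49.4% and 26.8% at full depth), and Ptp4a3 in 39.0% and 12.7% (63.6% and 29.5%). Detection was more than halved for all 3.
Col15a1 went from 59.7% to 21.1% of thinned cells (75.3% and 37.7% at full depth) and Mgll from 18.2% to 2.39% (41.98% and 6.17%). At full depth, as a background, 0 of 184 cardiomyocyte-like cells held a Col15a1 UMI (median 15882.5 UMIs per cell, against 17288.5 in EC-like cells), which puts the mutant EC-like share of Col15a1 above it. The Mgll share of 6.17% in mutant EC-like cells was close to the 6.51% of branchial muscle-like cells (median 22488 UMIs) and above the 3.82% of mesenchyme-like cells (median 13663), and 1 of 47 hepatoblast-like cells (2.13%) held it at a median of 39969 UMIs. No class known to lack Mgll was at hand to set a background for it. Within mutant ECs the share ranged from 0 of 73 cells in one of the subclusters described below to 26.5% and 27.6% in the Esm1-led and lymphatic ones.
Within single cells, fewer of the 5 genes were found together in the mutant, as the lower share of cells with each gene implies. Of thinned control EC-like cells, 18.2% (29 of 159) held no UMI of any of the 5, against 52.2% (371 of 711) in the mutant, while 30.2% of control and 10.4% of mutant cells held 2 of them. Of cells with Dach1, 74.6% (53 of 71) also held Col15a1 in control and 31.3% (47 of 150) in mutant. Among all thinned EC-like cells, 59.7% in control and 21.1% in mutant held Col15a1. Single cells weighed on some sums: 1 control cell held 116 Dach1 UMIs (9.01% of the control sum), and 1 control and 1 mutant cell held 80 and 70 Ptp4a3 UMIs (10.8% and 11.2%).

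The EC-like cells fell into 9 subclusters, formed without the 5 genes. Only 1 of them, with 8 of 8 lymphatic markers, met the rule for a cell type name, and the others are called by a gene among their 10 leading ones. The Procr-led subcluster (38 control and 192 mutant cells) raised 3 of 7 capillary markers (Cd36, Fabp4 and Meox2). The Esm1-led one (17 and 49 cells) raised 7 of 11 arterial markers, carried the tip cell gene Esm1 and the brain-capillary transporter genes Slco1c1 and Mfsd2a, and had Ptp4a3 among its 10 leading genes. Its control and mutant cells had medians of 18258 and 9317 UMIs. Arterial markers summed to 4132 and 2034 CPM there, venous markers to 314 and 698 and tip cell markers to 705 and 1084. The part of these differences in its ratios was not tested. The Dkk2-led one (20 and 88) raised arterial and endocardial markers together, the Cdc20-led one (22 and 119) had the mitotic genes Cdc20 and Pttg1 among its leading genes, and the Col1a1-led one (20 and 70) raised 10 of 10 mesenchyme markers, and 8 control and 17 mutant cells of it had high doublet scores, against 0 to 4 in the other subclusters. Its mesenchyme markers summed to 4202 and 3391 CPM, above its EC markers at 1748 and 2267. Without it the EC-like log2 ratios were −2.39 for Dach1, −2.34 for Rgcc, −2.42 for Ptp4a3, −2.32 for Col15a1 and −3.71 for Mgll. The Foxf1-led one (13 and 30) also had Fendrr, the noncoding neighbour of Foxf1, and Lyve1 among its leading genes. The Trib3-led one (Fgf23, Slc2a3, Pgf, Stc2) held 3 control and 96 mutant cells, so no ratio is read from it and it is left out of the control orders below, which cover subclusters of at least 5 cells. Its control levels (1115 CPM of Ptp4a3, 590 of Col15a1 and 564 of Dach1) rested on single cells, 80 of 87 Ptp4a3 UMIs being in 1 of them. In the Kirrel3-led one (11 and 73), all 10 leading genes span more than 100 kb and genes of that length, Dach1 aside, gave 31.4% of control and 29.8% of mutant UMIs, against 13.2% and 11.9% over all EC-like cells. Col15a1 (105 kb) and Mgll (104 kb) are themselves among the genes of that length. Kirrel3-led cells were also shallow, with medians of 13418 and 8365 UMIs.

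**Figure D1:**
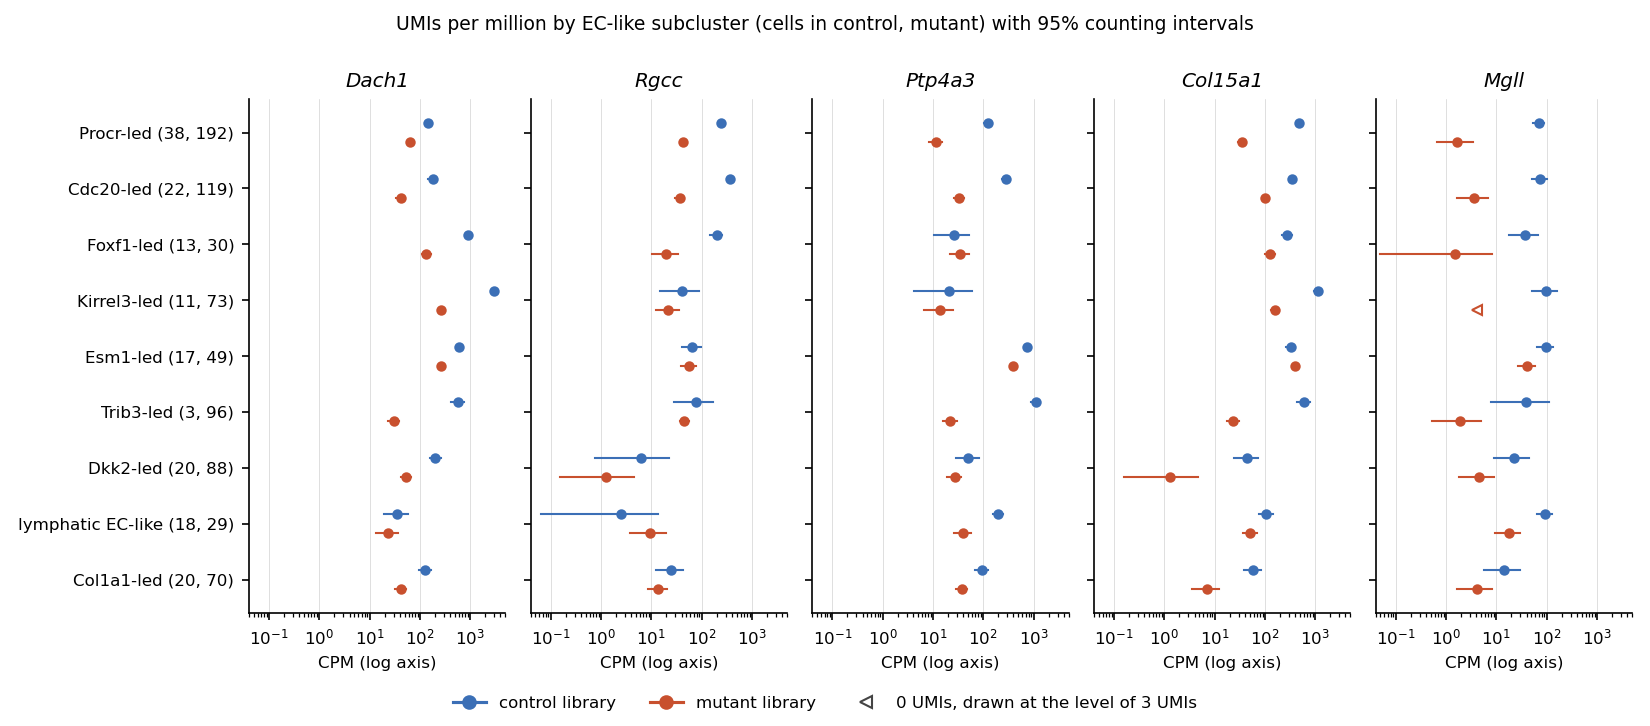
Level of each of the 5 genes in CPM (log axis) in the EC-like subclusters, control and mutant library side by side, with bars for 95% counting intervals and open triangles for sums of 0 UMIs, drawn at the level of 3 UMIs. Among subclusters of at least 5 control cells, which leaves out Trib3-led cells, Dach1 and Col15a1 are highest in the Kirrel3-led ones (2914 and 1135 CPM), Rgcc in the Cdc20-led ones (370 CPM) and Ptp4a3 in the Esm1-led ones (736 CPM).

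Dach1 was at its highest level in the Kirrel3-led, Foxf1-led and Esm1-led cells of both libraries. In control these stood at 2914, 885 and 609 CPM, with no overlap of the intervals between them, and all other subclusters with at least 5 cells stood at 203 CPM or less. In the mutant the same subclusters were the highest, at 266, 135 and 265 CPM, and the Kirrel3-led and Esm1-led intervals overlapped. The log2 ratios were −3.45 (−3.71 to −3.21) in Kirrel3-led, −2.72 (−3.08 to −2.36) in Foxf1-led and −1.20 (−1.50 to −0.90) in Esm1-led cells. Procr-led cells, by their number, held the most mutant Dach1 UMIs, 25.4%. The 11 Kirrel3-led control cells, 6.79% of the class, held 33.1% of its Dach1 UMIs, and the part of their long-gene UMIs in that level was not tested. Without them the EC-like log2 ratio was −2.02. In the Esm1-led cells, 80 of 196 control UMIs came from 1 cell, while every one of the 17 held Dach1. Lymphatic EC-like cells had the lowest Dach1, 35.0 CPM in control and 23.1 in mutant (log2 ratio −0.60, with an interval of −1.71 to 0.53 that spans 0). At a finer resolution that split arterial EC-like from endocardial EC-like cells, Dach1 stood at 357 and 94.6 CPM in the arterial cells and at 45.0 and 9.23 CPM (7 UMIs in each library) in the endocardial ones.

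Rgcc had another distribution. In control it was highest in Cdc20-led cells at 370 CPM, then Procr-led at 243 and Foxf1-led at 199 CPM, and these 3 subclusters held most of its UMIs (32.8% and 48.0% for the first 2). It was near absent from Dkk2-led cells (2 UMIs) and lymphatic EC-like cells (1 UMI). The mutant levels were 36.9, 42.6 and 19.7 CPM, with log2 ratios of −3.33 (−3.71 to −2.95), −2.51 (−2.80 to −2.23) and −3.34. In Esm1-led cells Rgcc stood at 65.2 CPM in control and 55.9 in mutant. The log2 ratio of −0.22 has an interval, −1.02 to 0.62, that holds both no difference and a difference of 2-fold. The upper mutant levels lay close together: Esm1-led, Trib3-led, Procr-led and Cdc20-led cells lay between 36.9 and 55.9 CPM with overlapping neighbours, while the lowest, Dkk2-led cells, had 1.28 CPM. The Trib3-led cells, which were nearly all mutant, held 20.2% of mutant Rgcc UMIs and 14.0% of all mutant EC-like UMIs.

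Among subclusters of at least 5 cells, Ptp4a3 stood highest in Esm1-led cells of both libraries, at 736 CPM in control and 400 in mutant, with intervals apart from the others. All 17 control and 36 of 49 mutant Esm1-led cells held it, and its log2 ratio there was −0.88 (−1.14 to −0.62), with 70 of 279 mutant UMIs in 1 cell. The ratios farthest below 0, Trib3-led cells aside, were in Procr-led, Cdc20-led and lymphatic EC-like cells. Procr-led cells went from 125 to 11.4 CPM (log2 ratio −3.46, −3.97 to −2.98), Cdc20-led cells from 283 to 32.9 CPM (−3.11) and lymphatic EC-like cells from 197 to 39.4 CPM (−2.32). Foxf1-led cells had little Ptp4a3 in either library, 25.8 and 34.8 CPM, with an interval of the log2 ratio from −0.84 to 1.89. In the mutant, 44.7% of all EC-like Ptp4a3 UMIs lay in Esm1-led cells, which gave 4.68% of mutant EC-like UMIs. In control the shares were 31.9% and 9.06%.

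Col15a1, the matrix gene, was the one with a higher Esm1-led level in the mutant, though its interval, like that of Rgcc, held no difference. Col15a1 stood there at 326 CPM in control and 406 CPM in mutant cells, a log2 ratio of 0.31 (−0.01 to 0.65). In control, Trib3-led cells aside, it was highest in Kirrel3-led cells (1135 CPM, all 11 cells) and then Procr-led cells (482 CPM, 35 of 38 cells). In the mutant those stood at 159 and 34.8 CPM, with log2 ratios of −2.84 (−3.19 to −2.49) and −3.79 (−4.07 to −3.53). As for Dach1, the part of long-gene UMIs in the Kirrel3-led Col15a1 level was not tested. Cdc20-led cells went from 346 to 101 CPM, lymphatic EC-like cells from 107 to 51.6, and Dkk2-led cells from 44.4 to 1.28 CPM (14 and 2 UMIs). Of those 14 control UMIs, 10 were in 1 cell. In arterial EC-like cells of the finer resolution, 4 of 12 control cells held 13 UMIs, 10 of them in 1 cell, against none in 53 mutant cells. The place of Col15a1 changed with these levels, since the Procr-led share of its UMIs went from 44.2% to 14.97% and the Esm1-led share from 9.14% to 28.8%.

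Mgll was spread most evenly in control. Esm1-led, Kirrel3-led, lymphatic EC-like, Cdc20-led and Procr-led cells lay between 69.3 and 96.3 CPM, and the intervals of all neighbours in the order overlapped. Dkk2-led (22.2 CPM; 8.93 to 45.8) and Col1a1-led cells (14.2; 5.71 to 29.2) were the lowest. Their intervals lay below that of Procr-led cells (54.3 to 87.2). In the mutant, Esm1-led cells kept 40.1 CPM, a log2 ratio of −1.26 (−2.05 to −0.48), and lymphatic EC-like cells 17.7 CPM (−2.39). Procr-led cells went from 69.3 to 1.66 CPM (log2 ratio −5.39, −6.75 to −4.27) and Cdc20-led cells from 73.9 to 3.61 (−4.36). None of the 73 Kirrel3-led mutant cells held an Mgll UMI, which allows up to 5.05 CPM by the counting interval. The control level there was 95.8 CPM (52.4 to 161), with 10 of 14 UMIs in 1 cell, and the part of long-gene UMIs in it was not tested. Of the few mutant Mgll UMIs, 36.8% were in Esm1-led cells.

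**Figure D2:**
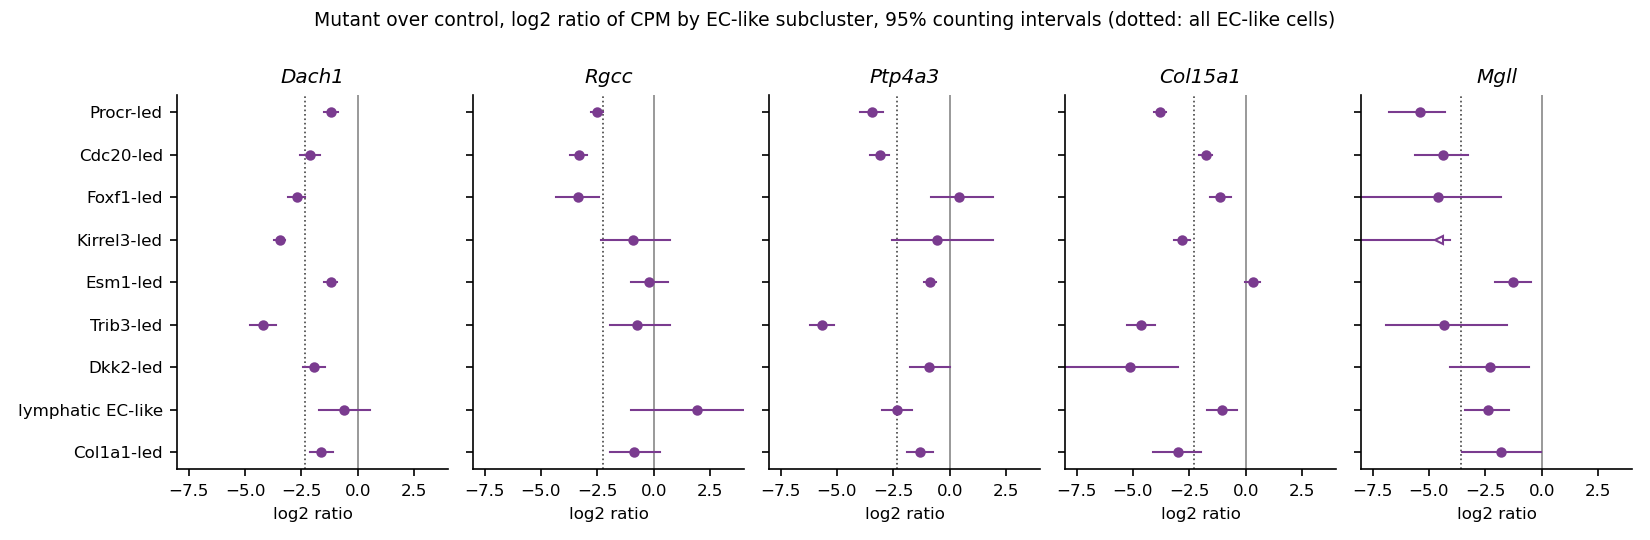
Log2 ratio of mutant over control CPM for each of the 5 genes in each EC-like subcluster, with bars for 95% counting intervals and a dotted line for all EC-like cells. Some intervals run past the left edge, an open triangle is a bound where the mutant had 0 UMIs, pairs under 4 UMIs are left out, and Trib3-led cells (3 in control) are drawn but not read. The Esm1-led ratio of every gene lies nearer 0 than that over all EC-like cells, and that of Col15a1 is 0.31. The lymphatic EC-like ratios of Dach1, Col15a1 and Mgll lie nearer 0 too.

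Across subclusters, the log2 ratio in Esm1-led cells was nearer 0 than the ratio over all EC-like cells for each gene (−1.20, −0.22, −0.88, 0.31 and −1.26 in the order Dach1, Rgcc, Ptp4a3, Col15a1, Mgll). This was not particular to them. In lymphatic EC-like cells the ratio was also nearer 0 for Dach1 (−0.60), Col15a1 (−1.06) and Mgll (−2.39). Ptp4a3 stood there at −2.32, as over all EC-like cells, and Rgcc had only 1 control and 7 mutant UMIs. Dach1 in Procr-led cells had −1.19. Without the Esm1-led cells the EC-like log2 ratios of Ptp4a3, Col15a1 and Mgll were −2.69, −2.71 and −4.09. With the mutant subclusters weighted to the UMI shares they had in control, the log2 ratios were −2.11 for Dach1, −1.80 for Ptp4a3, −1.94 for Col15a1 and −2.98 for Mgll. That weighting moved the Rgcc ratio by less than its counting interval.

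**Figure D3:**
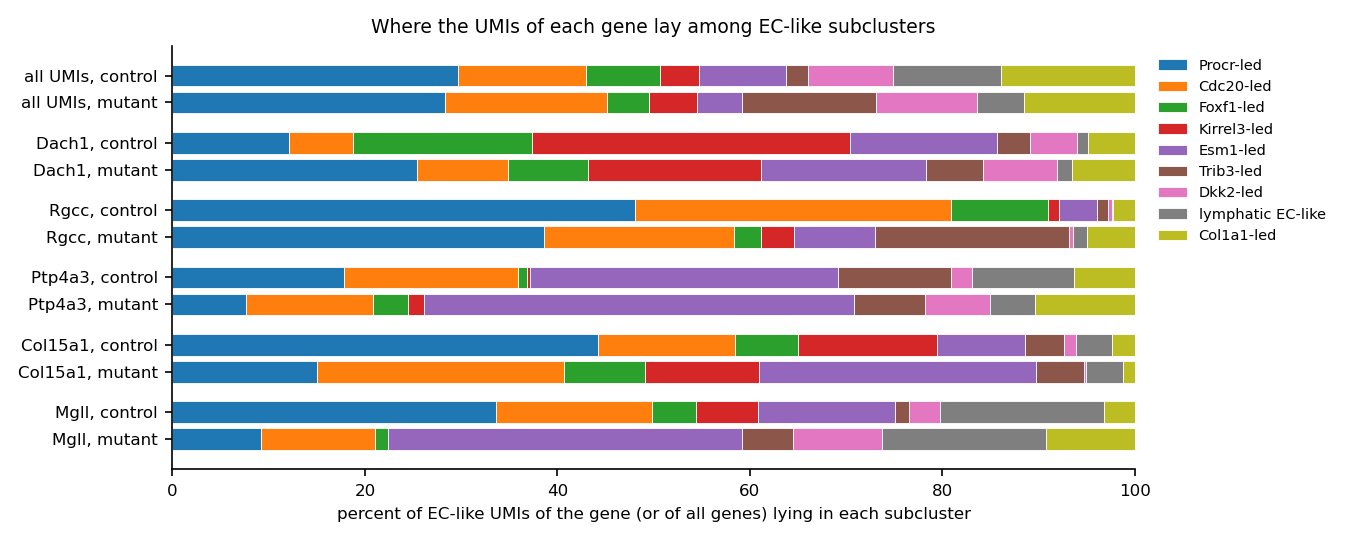
Share of each gene's EC-like UMIs (percent, bars starting at 0) that lies in each subcluster, for the control and the mutant library, beside the share of all EC-like UMIs. The Esm1-led share rises from 31.9% to 44.7% for Ptp4a3, from 9.14% to 28.8% for Col15a1 and from 14.3% to 36.8% for Mgll, while its share of all UMIs goes from 9.06% to 4.68%.

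Phases of the cell cycle were called from 43 S and 54 G2/M genes in cells thinned to 5000 UMIs. In G1 were 77 of 159 control (48.4%) and 370 of 711 mutant EC-like cells (52.0%). Dach1 and Rgcc were low in G1 in control. Dach1 stood at 197 CPM in G1, 427 in S and 521 in G2/M, a log2 ratio of G1 over the cycling phases together of −1.27 (−1.47 to −1.08), and Rgcc at 86.9, 183 and 201 CPM (−1.15; −1.45 to −0.85). In the mutant this order was turned: Dach1 stood at 79.2, 64.3 and 64.0 CPM (0.30; 0.12 to 0.48) and Rgcc at 37.6, 27.2 and 27.3 (0.46; 0.19 to 0.73). The mutant difference was accordingly larger in cycling cells. For Dach1 the log2 ratio of mutant over control was −1.31 (−1.53 to −1.10) in G1 and −2.89 (−3.04 to −2.74) in S and G2/M, and for Rgcc −1.21 (−1.53 to −0.88) and −2.82 (−3.06 to −2.58).

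In level, Ptp4a3 had the opposite phase pattern. Its control level was 310 CPM in G1, 103 in S and 177 in G2/M, a log2 ratio of G1 over cycling of 1.13 (0.91 to 1.35), and its mutant level 52.9, 28.8 and 37.2 CPM (0.69; 0.45 to 0.92). G1 was the highest phase in both libraries, and the log2 ratio of mutant over control was −2.55 (−2.76 to −2.34) in G1 and −2.11 (−2.35 to −1.87) in cycling cells. Col15a1 was somewhat lower in G1 in control (252 CPM against 368 and 377; log2 ratio −0.57, −0.75 to −0.39) and level in the mutant (64.8, 59.0 and 71.3 CPM). Mgll showed no phase difference beyond its counting error in either library, with G1 over cycling log2 ratios of −0.10 (−0.51 to 0.31) and 0.19 (−0.51 to 0.88).

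**Figure D4:**
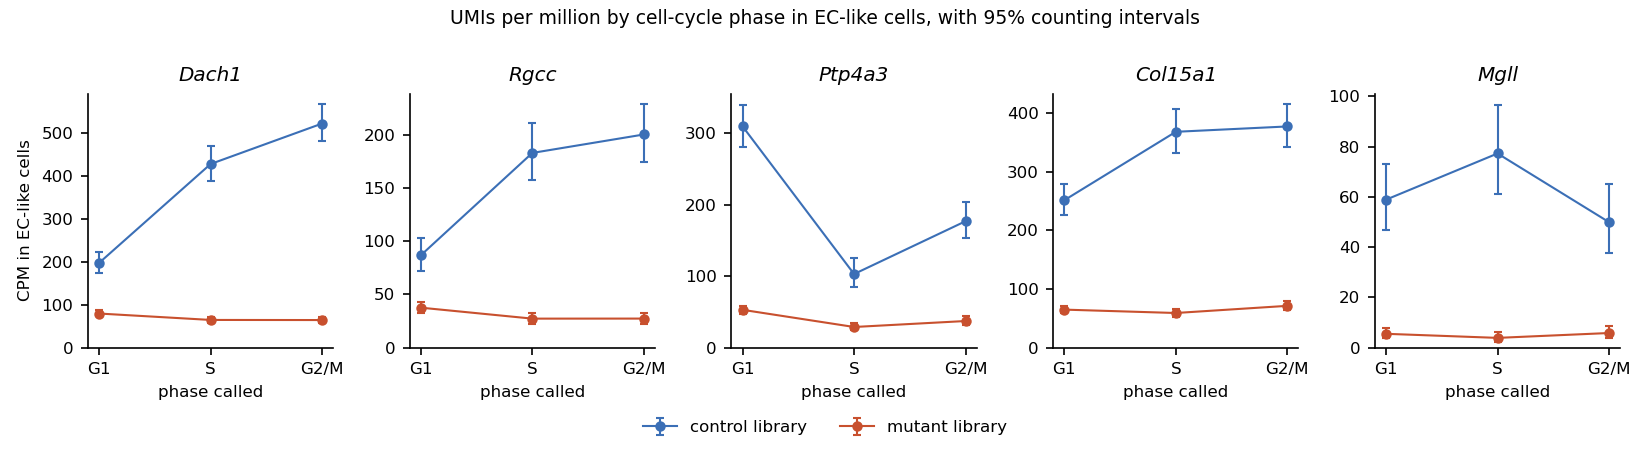
Level of each of the 5 genes in CPM in G1, S and G2/M EC-like cells of each library, with bars for 95% counting intervals. Control Dach1 goes from 197 CPM in G1 to 521 in G2/M and control Ptp4a3 from 310 to 177, while the mutant levels of all 5 genes lie below the control ones in each phase.

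The phase patterns rested in part on single cells and single subclusters. In thinned control cells, Ptp4a3 was found in 40.3% of G1 and 37.8% of cycling cells. Dach1 was found in 40.3% and 48.8%, and the intervals of the phases overlapped for both genes. Rgcc was found in 18.2% and 41.5%. In thinned mutant cells, Rgcc was found in 11.1% of G1 and 10.6% of cycling cells and Dach1 in 23.2% and 18.8%. The intervals of the phases overlapped for both, so the turned order was seen in level and not clearly in the share of cells. Of the control UMIs, 80 of 442 for Ptp4a3 in G1 and 116 of 1005 for Dach1 in cycling cells were in 1 cell each. For Dach1 in G1, 58 of 281 control UMIs were in 1 Col1a1-led cell. Of the 1005 Dach1 UMIs of cycling control cells, 407 came from the 9 Kirrel3-led cells in those phases. Without that subcluster, the control Dach1 ratio of G1 over cycling was −0.69 (187 and 301 CPM) and the cycling ratio of mutant over control was −2.43. Esm1-led cells, of which 82.4% of control and 69.8% of mutant cells were in G1, held much of the Ptp4a3. Without them its G1 over cycling ratio was 0.68 in control and −0.19 (−0.52 to 0.13) in mutant, so a phase difference of mutant Ptp4a3 was not detectable outside this subcluster. Mutant Dach1 lost its difference too, with a G1 over cycling ratio of 0.07 (−0.13 to 0.26) without Esm1-led cells and 0.15 (−0.03 to 0.34) without Cdc20-led cells. Mutant Col15a1 without Esm1-led cells was lower in G1, −0.53 (−0.76 to −0.30; 39.3 and 56.8 CPM), beside −0.48 in control. The mutant Rgcc ratio without Esm1-led cells was 0.34 (0.05 to 0.62).
Procr-led cells allow a comparison within 1 subcluster, with 17 control and 105 mutant cells in G1 and 19 and 81 in cycling phases. There Dach1 differed by a log2 ratio of −0.36 (−0.91 to 0.21) in G1 and −1.60 (−1.96 to −1.24) in cycling cells, and Rgcc by −1.92 (−2.37 to −1.47) and −2.90 (−3.28 to −2.52). The larger difference of these 2 genes in cycling cells was thus seen within the subcluster too. Ptp4a3 went the other way, −4.36 (−5.26 to −3.54) in G1 and −2.75 (−3.42 to −2.10) in cycling cells. Dach1 and Rgcc also had lower ratios in cycling than in G1 cells of the Cdc20-led and Foxf1-led subclusters. Their control G1 UMIs there were few, 2 and 8 for Dach1 and 13 and 1 for Rgcc. The G1 and cycling intervals overlapped except for Dach1 in Cdc20-led cells. Also on few control UMIs, other subclusters went the opposite way. Dach1 had −2.00 in G1 and −0.74 in cycling Dkk2-led cells (6 cycling UMIs), and −2.42 and 1.62 in Col1a1-led ones (3 UMIs). In the Col1a1-led cells, 58 of the 60 control G1 UMIs were in 1 cell. Rgcc had −2.67 and 0.14 in Kirrel3-led cells (2 UMIs). In G1 cells of the Esm1-led subcluster (14 and 30 cells), Dach1 differed by −0.25 (−0.66 to 0.15) and Col15a1 was higher in the mutant, 213 and 452 CPM (1.09; 0.62 to 1.57). In cycling Esm1-led cells, only 3 in control and 13 in mutant, Col15a1 was lower, 631 and 299 CPM (−1.08; −1.58 to −0.56), and Dach1 differed by −2.84 (−3.36 to −2.34). That Dach1 value rests largely on 1 control cell, which held 80 of the 106 control UMIs.

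Outside the ECs, the 5 genes did not share a pattern. In control, EC-like cells exceeded all other cells together for each gene, by log2 ratios of 2.34 for Dach1, 2.60 for Rgcc, 2.79 for Ptp4a3, 5.12 for Col15a1 and 1.87 for Mgll. In the mutant, EC-like cells exceeded the rest by more than 1.5-fold only for Col15a1 (65.9 and 1.37 CPM; 5.59). Dach1 (72.5 and 95.6 CPM; −0.40) and Mgll (5.10 and 7.88; −0.63) were lower in EC-like cells than in the rest, Ptp4a3 (41.9 and 33.3; 0.33) was slightly higher, and the interval of Rgcc (31.3 and 28.7; −0.03 to 0.27) held no difference.

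Dach1 went different ways in other classes. Neuron-like cells (193 control, 473 mutant) stood at 333 and 325 CPM, a log2 ratio of −0.03 (−0.13 to 0.06), with 0.08 in G1 and −0.87 (−1.15 to −0.59) in the few cycling cells. In branchial muscle-like cells it was higher in the mutant, 29.9 and 58.7 CPM (0.97; 0.83 to 1.11), and this held in G1 (0.90) and in cycling cells (0.96). Mesenchyme-like cells went from 56.0 to 77.8 CPM and mesothelium-like cells from 5.52 to 18.5 (12 and 21 UMIs). It was lower in epithelium-like cells, 158 and 123 CPM, where G1 cells (−1.23) and cycling cells (1.66) went opposite ways, and in a cluster led by Adh1, Wnt2 and Tbx4, 64.9 and 20.8 CPM. Mural cell-like cells, with 42 mutant cells too few for a ratio here, stood at 324 CPM in control and 93.4 in mutant.

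Rgcc went both ways across classes. Its highest level outside ECs was in neural crest-like cells, 385 CPM in control (54 cells) and 429 in mutant (24 cells). Neuron-like cells went from 30.6 to 7.38 CPM (−2.05; −2.53 to −1.59) and epithelium-like cells from 27.5 to 11.2 (−1.30), where G1 cells were higher (1.42; 0.21 to 2.85) and cycling cells lower (−1.99; −2.63 to −1.38). Branchial muscle-like cells went up from 4.40 to 13.2 CPM (1.59; 1.26 to 1.93; 103 and 260 UMIs), and the Wnt2-led cluster from 2.15 to 23.4 CPM on 18 and 36 UMIs. A cluster of blood cells, which raised macrophage and erythroid markers, stood at 80.3 and 91.0 CPM with an interval of −0.02 to 0.38. Mural cell-like cells, with 42 mutant cells too few for a ratio here, stood at 23.0 CPM in control and 99.9 in mutant (30 and 62 UMIs).

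Ptp4a3 had its highest level outside ECs in cardiomyocyte-like cells. Cardiomyocyte-like cells had 167 CPM in control and 127 in mutant (−0.39; −0.67 to −0.11), with the gene in 83.3% and 76.6% of cells. Branchial muscle-like (21.3 and 19.6 CPM) and neuron-like cells (27.8 and 25.5) had log2 ratios of −0.13 each. In the former, G1 cells were higher in the mutant (0.70; 0.31 to 1.10) and cycling cells lower (−0.41; −0.64 to −0.18). The blood cell cluster was higher in the mutant, 71.3 and 100.04 CPM (0.49), and epithelium-like cells lower, 21.6 and 10.4 (−1.05).

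Col15a1 was lower in the mutant in each of the 4 other classes with at least 50 cells in each library and at least 20 UMIs. Branchial muscle-like cells, the largest other source in control, went from 15.3 to 0.76 CPM (359 and 15 UMIs), a log2 ratio of −4.33 (−5.18 to −3.59) that was beyond the ratio in ECs. The share of those cells with a UMI went from 21.7% to 1.30%. Mesenchyme-like cells went from 11.1 to 3.33 CPM (−1.74; −2.40 to −1.12), neuron-like cells from 5.81 to 1.65 (−1.81) and epithelium-like cells from 5.65 to 0.56 CPM, where 15 of 23 control UMIs were in 1 cell. Cardiomyocyte-like cells held no Col15a1 UMI in 54 control and 184 mutant cells, so free RNA gave them none at this depth.

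Mgll was highest outside ECs in mural cell-like cells, 166 CPM in control and 172 in mutant, with 100 and 42 cells. Neuron-like cells went from 29.3 to 5.35 CPM (−2.46; −3.00 to −1.93), mesothelium-like cells from 23.0 to 6.18 (−1.90) and mesenchyme-like cells from 7.95 to 3.20 (−1.31). Epithelium-like (10.3 and 12.7 CPM) and branchial muscle-like cells (4.95 and 4.74) were nearly level.

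Calls past 1.5-fold outside ECs are set here beside the share of all genes called. Of genes with at least 20 UMIs, the share lower past this mark was 4% in branchial muscle-like, 3.78% in epithelium-like, 5.79% in mesenchyme-like and 2.49% in mesothelium-like cells. Among neuron-like cells the share was 7.45% (higher: 3.61%, 4.33%, 7.2% and 2.47% from the second to the last). The members called lower were Col15a1 in the first, Rgcc and Col15a1 in the second, Col15a1 and Mgll in the third, Mgll in the fourth and Rgcc, Col15a1 and Mgll in the last. Higher calls made up 7.79% of genes in branchial muscle-like cells, where Dach1 and Rgcc were among them, and Dach1 was also called higher in mesothelium-like cells. In the Wnt2-led cluster Dach1 was called lower and Rgcc higher (2.21% and 2.88% of genes), and none of the 5 was called in cardiomyocyte-like cells (4.12% lower and 1.71% higher over all genes) or in the blood cell cluster (8.69% and 3.51%).

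**Figure D5:**
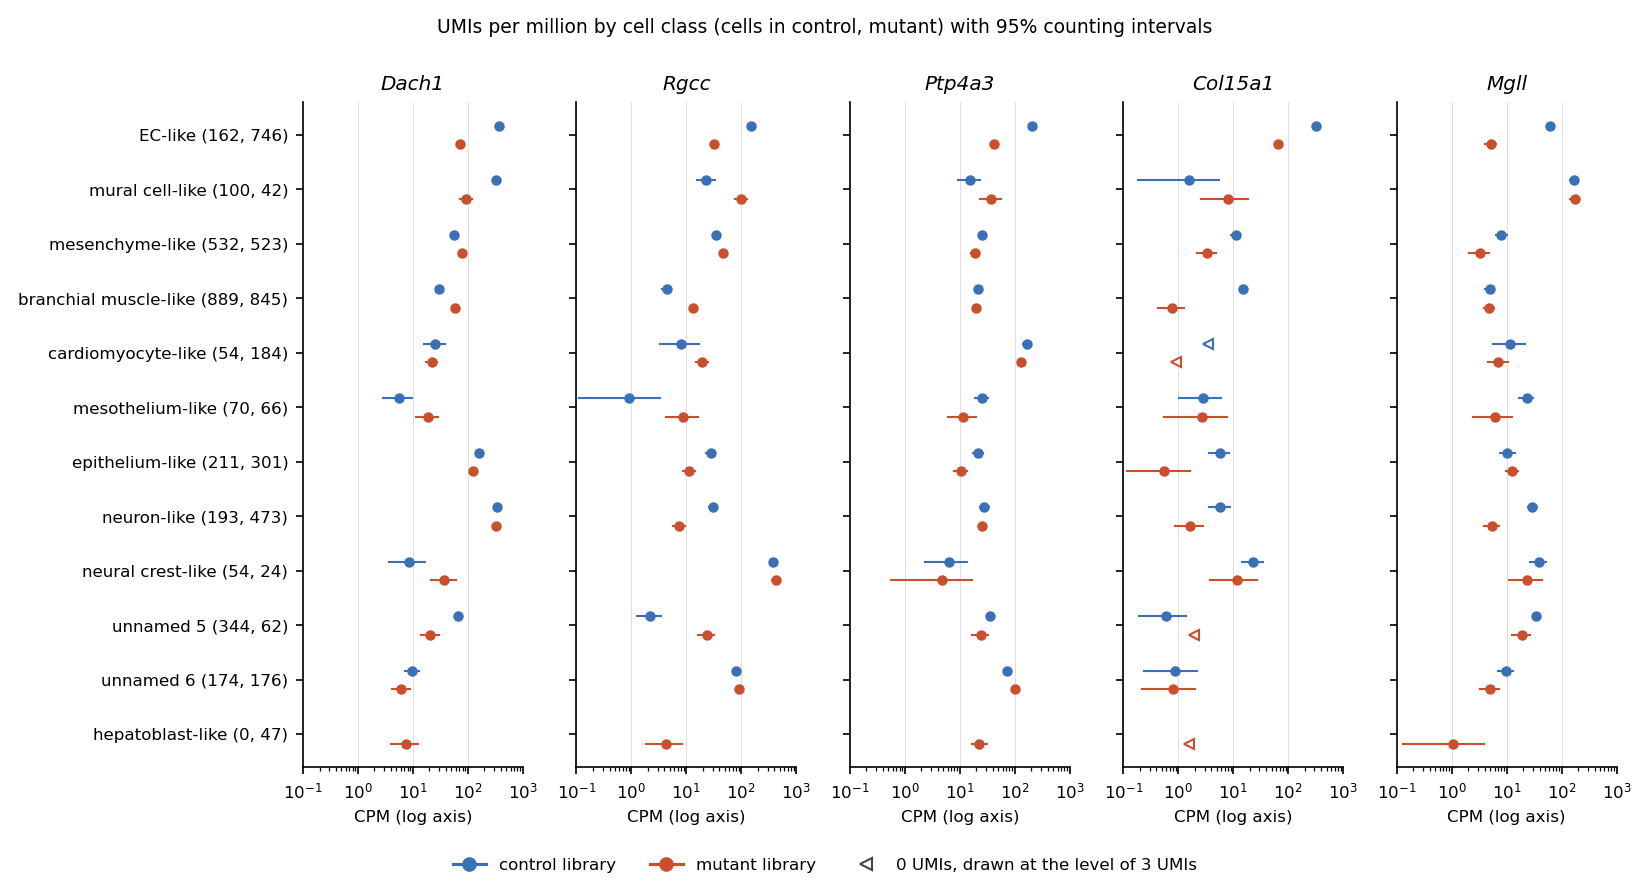
Level of each of the 5 genes in CPM (log axis) in every cell class, numbers of control and mutant cells in parentheses (unnamed 5 is the Wnt2-led and unnamed 6 the blood cell cluster), with bars for 95% counting intervals and open triangles for sums of 0 UMIs, drawn at the level of 3 UMIs. The EC-like levels of all 5 genes lie lower in the mutant, while Dach1 in neuron-like cells stands at 333 and 325 CPM and Col15a1 in branchial muscle-like cells at 15.3 and 0.76.

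The libraries differed in sex mix, and values by sex are given beside each other. In female-like EC-like cells alone (146 control, 250 mutant), the log2 ratios were −2.18 for Dach1, −2.39 for Rgcc, −2.28 for Ptp4a3, −1.84 for Col15a1 and −3.29 for Mgll. Among mutant EC-like cells, male-like cells had less Dach1 (−0.44; −0.62 to −0.25), Col15a1 (−0.78; −0.97 to −0.60) and Ptp4a3 (−0.28; −0.54 to −0.02) than female-like ones. For Ptp4a3, 36 of the 218 female-like UMIs were in 1 cell, and 30.8% of female-like and 30.2% of male-like cells held it. The intervals of Rgcc (−0.16 to 0.45) and Mgll (−1.28 to 0.14) held no difference. Those male-like and female-like cells came from different embryos, so sex and embryo cannot be told apart.

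The close relatives and partners of the 5 genes mostly did not share the difference in EC-like cells. Of 9 other genes listed with Dach1 (the dachshund, eyes absent and sine oculis families), 1 was lower past 1.5-fold (Dach2, the paralog of Dach1, 25.1 and 9.80 CPM), 1 was higher (Six2, on 2 and 61 UMIs), and their median log2 ratio was 0.08. Of 5 mitotic kinase genes and partners listed with Rgcc, none was called, with Cdk1 at 174 and 179 CPM and Plk1 at 49.0 and 41.4. Among the 5 measured genes listed with Ptp4a3 (other PTP4A phosphatases and the CNNM transporters they bind), Ptp4a1 was higher (18.9 and 39.3 CPM) and Ptp4a2 stood at 123 and 140. Of 11 other basement membrane genes, Lama4, a laminin chain of vessels, was lower (401 and 177 CPM; −1.18), while Col18a1, the nearest relative of Col15a1, stood at 585 and 570 CPM and Col4a1 at 1413 and 1353. None of 9 measured genes of monoacylglycerol and endocannabinoid metabolism was called, with Abhd6 at 25.3 and 24.5 CPM and Abhd12 at 25.6 in each library. The median log2 ratios of the other genes listed with Rgcc, Ptp4a3, Col15a1 and Mgll were −0.20, 0.18, −0.07 and −0.40. As a background for these lists, 4.66% of 14454 genes with at least 20 UMIs in EC-like cells were lower and 4.44% higher past the mark.

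The genes most like each member were sought by Pearson's r of log2(CPM + 1) over 18 sums of EC-like subcluster, library and phase, 3 of them from control. These sums share libraries and most are mutant, so r is a description. The difference between libraries by which the members were chosen also enters r. Pcdh17, Cyyr1, Rflnb and Pcdh12, named below, were themselves lower in mutant EC-like cells, with log2 ratios of −2.18, −1.80, −1.62 and −1.38. Mgll had few UMIs in most mutant sums, such as 1 in G1 and 6 in cycling Procr-led cells. Dach1 was most like Cyyr1 (0.876), Btbd3, Phactr2, Rgl1 and Lamc1. Rgcc was most like Gpihbp1 (0.943), the capillary anchor of lipoprotein lipase, then Robo4, Nrros, Madcam1 and Tcf15. Ptp4a3 and Mgll were near each other (0.856), and each had Rasgrp2 among its 5 nearest genes, with Anxa6 (0.850), Wasf2 and Rflnb beside Ptp4a3 and Pea15a, Rnf220 and Hmg20b beside Mgll. Col15a1 was most like the protocadherin genes Pcdh17 (0.895) and Pcdh12 (0.867), then Aplnr, the apelin receptor gene of venous and sprouting ECs, N4bp3 and Sipa1. Over 18 sums of class and library the nearest genes were others: Pcdh17 for Dach1 (0.880), Fli1 for Rgcc (0.786), 0610012G03Rik for Ptp4a3 (0.860), 4931406P16Rik for Col15a1 (0.913) and Lxn for Mgll (0.586).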

How the data were processed

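UMIs per gene and cell were deposited by the authors as raw counts of the called cells of 2 libraries (Cell Ranger 7.1.0 per the labels, mm10), from FACS-sorted eYFP+ cells and the 10x 5′ chemistry. Whether intronic reads were counted is not given in the sources used here. The genes and gene lists were chosen with earlier results of these data known. Cells with over 2000 and under 9000 genes and under 10% mitochondrial UMIs were kept (63153191 control and 69717583 mutant UMIs). Libraries were integrated and clustered in Seurat 5.3.0 (R 4.3.3; 2000 variable genes without the members and gene lists, 30 components, resolution 0.3, cell cycle regressed), giving 16 clusters, and EC-like cells again (1500 genes, 15 components, resolution 0.5). Clusters were named from marker lists, and names differ from the study where clusters do. Scrublet in scanpy 1.11.5 called 0 and 1 doublets, so it did not work and doublets were kept. Cells with high doublet scores are the 162 control and 230 mutant deposited cells ranked highest by its score, a number set at 0.8% per 1000 cells. They mark a rank, not a call. UMIs were summed per group of cells and scaled to CPM, with exact Poisson intervals for levels and conditional exact binomial intervals for ratios (scipy 1.17.1), which were checked on simulated counts. A count of 0 was bounded by 3 UMIs. Classes were compared with at least 50 cells in each library, and calls needed 20 UMIs or, where stated, 100 CPM. With 1 library per genotype no test was run. Named genes were the members, the listed relatives as counts with examples, and the 5 genes nearest each member by correlation over sums of at least 15 cells, among genes with at least 100 CPM in a sum. Gene spans were taken from GENCODE vM21 for 32158 of 32285 genes. edgeR 4.0.16 gave the TMM factor of 1 alternative.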

Additional observations from a re-analysis of the deposited data

Results flagged for a closer look

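Some ratios of mutant over control lay on the other side of 0 from the ratio in EC-like cells, with counting intervals that exclude 0. Only classes with at least 50 cells in each library were searched, which leaves out mural cell-like and neural crest-like cells. The difference between the classes was not tested, since each genotype was 1 library. Dach1 was higher in the mutant in branchial muscle-like (log2 ratio 0.97), mesenchyme-like (0.47; 0.31 to 0.64) and mesothelium-like cells (1.75; 0.66 to 2.90, from 12 and 21 UMIs). Rgcc was higher in branchial muscle-like (1.59), mesenchyme-like (0.41; 0.19 to 0.62) and cardiomyocyte-like cells (1.26; 0.13 to 2.63, from 7 and 63 UMIs), in the Wnt2-led cluster (3.45; 2.59 to 4.35) and in mesothelium-like cells (3.26, from 2 and 10 UMIs). Ptp4a3 was higher in the blood cell cluster (0.49; 0.29 to 0.69). Neither Col15a1 nor Mgll had such a class.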

How the results depend on the processing

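Every log2 ratio in EC-like cells stayed below 0 under all 17 alternatives tried per gene, from −2.89 to −1.26 for Dach1, −2.82 to −0.94 for Rgcc, −2.69 to −1.02 for Ptp4a3, −2.71 to −1.39 for Col15a1 and −4.09 to −2.36 for Mgll. The smallest came from taking cells with at least 4 of the 20 EC markers instead of the cluster (Dach1 −1.26, Rgcc −0.94, Ptp4a3 −1.02, Col15a1 −1.39, Mgll −2.36), a gate in which 152 of 368 control but 730 of 1018 mutant cells were EC-like. Thinning to 5000 UMIs gave −2.01 for Rgcc, −1.94 for Ptp4a3, −2.07 for Col15a1 and −3.09 for Mgll, and the mean over cells −2.17 for Dach1, −2.03 for Ptp4a3 and −2.06 for Col15a1. Female-like cells gave −2.18 for Dach1 and −1.84 for Col15a1. G1 cells gave −1.31 (Dach1), −1.21 (Rgcc), −2.55 (Ptp4a3) and −1.96 (Col15a1), and cycling cells −2.89, −2.82, −2.11 and −2.52. Control subcluster shares gave −2.11 (Dach1), −1.80 (Ptp4a3), −1.94 (Col15a1) and −2.98 (Mgll). Leaving out a subcluster, chosen after seeing the data, gave −2.02 for Dach1 without Kirrel3-led cells, −2.18 for Dach1, −2.06 for Ptp4a3 and −2.13 for Col15a1 without Trib3-led cells, and −2.69 for Ptp4a3, −2.71 for Col15a1 and −4.09 for Mgll without Esm1-led cells. The other ratios moved by less than the counting interval. With a filter of 20 UMIs in place of 100 CPM, 674 genes rather than 121 (104 with the TMM factor) were lower past 1.5-fold, because more genes were counted. Phases called at full depth gave G1 over cycling ratios of −1.47 for control and 0.53 for mutant Dach1 and 0.89 for control Ptp4a3. At resolution 1.0 the highest control Ptp4a3 was 1231 CPM, in 5 Trib3-led cells, and the highest control Mgll was 141 CPM, in a subcluster with Atf3 as first gene. At resolution 0.3 the highest control Rgcc was 272 CPM, in a subcluster with Fabp4 as first gene. Scaling moved the median of all genes by at most 0.09. No paired analysis was possible because each genotype was 1 library, and no replicate could be left out. Subclusters held as few as 3 control cells, so their levels rest on few embryos and cells.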
